A study of Mus musculus with 13 samples.

Results

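The Hedgehog pathway genes examined here were the ligand genes Shh, Ihh and Dhh, the receptor gene Ptch1, the ligand-binding antagonist gene Hhip, the signal transducer gene Smo and the transcription factor genes Gli1, Gli2 and Gli3. These 9 genes were taken by name from the 22367 protein-coding genes that GENCODE vM1 places on chromosomes 1 to 19, X and Y of the mouse mm9 build. For each gene, the peaks that overlapped the region from 1 kb before to 1 kb after the start site by at least 1 bp, and the peaks that overlapped the gene body, were read from 5 lists of ChIP-seq peaks.

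ChIP-seq recovers DNA fragments bound to a protein or carrying a histone mark, and a peak is a stretch of the genome where such fragments were called as enriched. The study asked where AEBP2, a zinc-finger cofactor of the Polycomb repressive complex PRC2, binds in mouse embryonic stem cells, and how its sites relate to H3K27me3, the histone mark that PRC2 deposits. The lists came from wild-type cells of the 129/1 strain, labelled as an XY ES cell line, with 2 replicates for endogenous AEBP2, 2 replicates for H3K27me3 and 1 sample for FS2-AEBP2. FS2-AEBP2 is AEBP2 carrying an N-terminal Flag and StrepII tag, made from a plasmid in addition to the cell's own AEBP2, so its level need not match that of the endogenous protein. For this protein the methods of the study name E14 cells under mass spectrometry, and the labels give 129/1 as the strain. Whether its line differed from that of the other samples is not given in the sources used here. The FS2 immunoprecipitation used its own bead and blocking steps, so tag, protocol and any difference in line cannot be told apart in that sample. The antibody label gives H3K27 without a methylation state and the study names the mark as H3K27me3. Replicates were numbered by the sample records, and the names of the 2 H3K27me3 lists appear to number them the other way round, so which of these is replicate 1 is uncertain. The SUZ12, input and Aebp2 mutant samples were not analysed here.

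The lists held 2877 and 6779 peaks for AEBP2 replicates 1 and 2, 2884 for FS2-AEBP2, and 14112 and 9275 for H3K27me3 replicates 1 and 2, with a median length of 1193, 855, 893, 2073 and 2244 bp. Each list is from 1 library and holds no read counts, so the sequencing depth is unknown, no error can be put on a peak, and no test over samples was possible. The absence of a peak therefore says that none was called, and not that the protein or mark was absent. The cell type was looked at through 5 pluripotency genes, Pou5f1, Nanog, Sox2, Klf4 and Esrrb, although expression was not measured. None had a peak of either AEBP2 replicate or of H3K27me3 replicate 2 within 1 kb of its start site, and only Klf4 had one in the other lists, of 675 bp for FS2-AEBP2 and 602 bp for H3K27me3 replicate 1. Esrrb had peaks in its gene body away from the start site in all 5 lists, 1 in each AEBP2 replicate and in FS2-AEBP2, and 6 and 3 in H3K27me3 replicates 1 and 2.

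Hedgehog ligands are secreted proteins that pattern the neural tube, limb, gut, bone and gonad of the embryo. In their absence PTCH1 holds SMO inactive, and ligand binding to PTCH1 releases SMO, which acts through the GLI factors on target genes that include Ptch1, Gli1 and Hhip themselves. Many developmental regulator genes that are silent in embryonic stem cells carry H3K27me3 and PRC2 at CpG-rich start sites.

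The promoter sequences of the members differed widely in CpG content. RefSeq entries (GRCm38.p6) were found for 7 of the 9 genes, all but Shh and Gli1. Each of the 7 stretches of 250 bases before the RefSeq start site matched mm9 exactly once in its locus. Those of 5 genes are printed here from 5′ to 3′ with CpG dinucleotides in capitals, and those of Smo and Gli3 are not printed. Ihh (chr1:74998247-74998496, minus strand, 24 CpGs) and Dhh (chr15:98728972-98729221, minus strand, 9 CpGs) were overlapped by peaks of all 5 lists. Hhip (chr8:82581908-82582157, minus strand, 28 CpGs) was overlapped by AEBP2 replicate 2 and both H3K27me3 lists. The Ptch1 stretch lies before a downstream start site of that gene (chr13:63667044-63667293, minus strand, 41 CpGs) and was overlapped by AEBP2 replicate 2 only. Gli2 (chr1:120950197-120950446, minus strand, 22 CpGs) was overlapped by none.
Ihh: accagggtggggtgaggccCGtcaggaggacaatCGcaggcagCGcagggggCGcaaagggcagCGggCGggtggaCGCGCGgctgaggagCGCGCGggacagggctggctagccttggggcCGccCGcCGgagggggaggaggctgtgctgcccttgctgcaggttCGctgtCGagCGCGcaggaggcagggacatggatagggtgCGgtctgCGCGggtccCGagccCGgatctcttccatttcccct
Dhh: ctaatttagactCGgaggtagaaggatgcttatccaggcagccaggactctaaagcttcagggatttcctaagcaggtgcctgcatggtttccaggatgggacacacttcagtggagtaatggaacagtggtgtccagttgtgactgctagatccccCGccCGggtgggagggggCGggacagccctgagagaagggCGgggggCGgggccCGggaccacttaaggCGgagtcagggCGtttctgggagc
Hhip: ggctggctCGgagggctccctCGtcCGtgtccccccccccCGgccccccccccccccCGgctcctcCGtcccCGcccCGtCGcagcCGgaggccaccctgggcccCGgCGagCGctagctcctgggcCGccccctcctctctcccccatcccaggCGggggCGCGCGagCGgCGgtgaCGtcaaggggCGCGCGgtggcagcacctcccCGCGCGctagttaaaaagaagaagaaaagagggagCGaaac
Ptch1: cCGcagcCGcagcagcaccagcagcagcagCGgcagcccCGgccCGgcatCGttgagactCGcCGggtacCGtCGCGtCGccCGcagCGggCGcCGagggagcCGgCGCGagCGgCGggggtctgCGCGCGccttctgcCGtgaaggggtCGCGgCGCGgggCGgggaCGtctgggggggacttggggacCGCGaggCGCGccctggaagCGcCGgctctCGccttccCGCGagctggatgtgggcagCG
Gli2: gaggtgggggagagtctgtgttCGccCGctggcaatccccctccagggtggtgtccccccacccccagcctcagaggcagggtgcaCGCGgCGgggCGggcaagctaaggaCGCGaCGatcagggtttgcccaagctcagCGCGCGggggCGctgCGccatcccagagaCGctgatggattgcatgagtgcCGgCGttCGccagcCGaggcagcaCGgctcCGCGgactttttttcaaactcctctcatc
The Dhh stretch, with the fewest CpGs of the 7, was overlapped by peaks of every list, in part only for AEBP2, whose peaks began 101 and 161 bp before the start site. The Ptch1 stretch, with the most CpGs, was overlapped by 1 peak. Over the 7 stretches the number of CpGs thus did not follow the number of lists with a peak over the stretch. The stretches do not all lie at the start sites used for the counts below. The RefSeq starts of Ptch1, Gli3 and Smo lay 7431, 488 and -197 bp from those start sites, negative values being upstream. At the start site used below, Ptch1 had a peak in all 5 lists.

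Within 1 kb of the start site, AEBP2 replicate 1 had a peak at 4 of the 9 members (9.08% of all protein-coding genes), AEBP2 replicate 2 at 5 (22.3%) and FS2-AEBP2 at 6 (6.53%). H3K27me3 replicate 1 had a peak at 5 members (17.0% of all genes) and replicate 2 at 7 (17.7%). Shh, Ihh, Dhh and Ptch1 had a peak in all 5 lists, a pattern found at 4.57% of all genes. AEBP2 peaks of both replicates were found at these 4 genes (8.44% of all genes), and H3K27me3 peaks of both replicates at these 4 and Hhip (15.0%). Gli1 had no peak in any list, as did 68.5% of all genes and 50.7% of those with a CpG-island-like region at the start site. Smo had a peak in FS2-AEBP2 and H3K27me3 replicate 2, Gli2 in FS2-AEBP2 and Gli3 in H3K27me3 replicate 2. The H3K27me3 peaks of Smo and Gli3 were not found in H3K27me3 replicate 1, and FS2-AEBP2 has no replicate in which to look. The gene bodies gave the same counts of members per list, 4, 5, 6, 5 and 7, beside 10.3%, 24.9%, 7.69%, 20.8% and 20.2% of all genes.

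**Figure D1:**
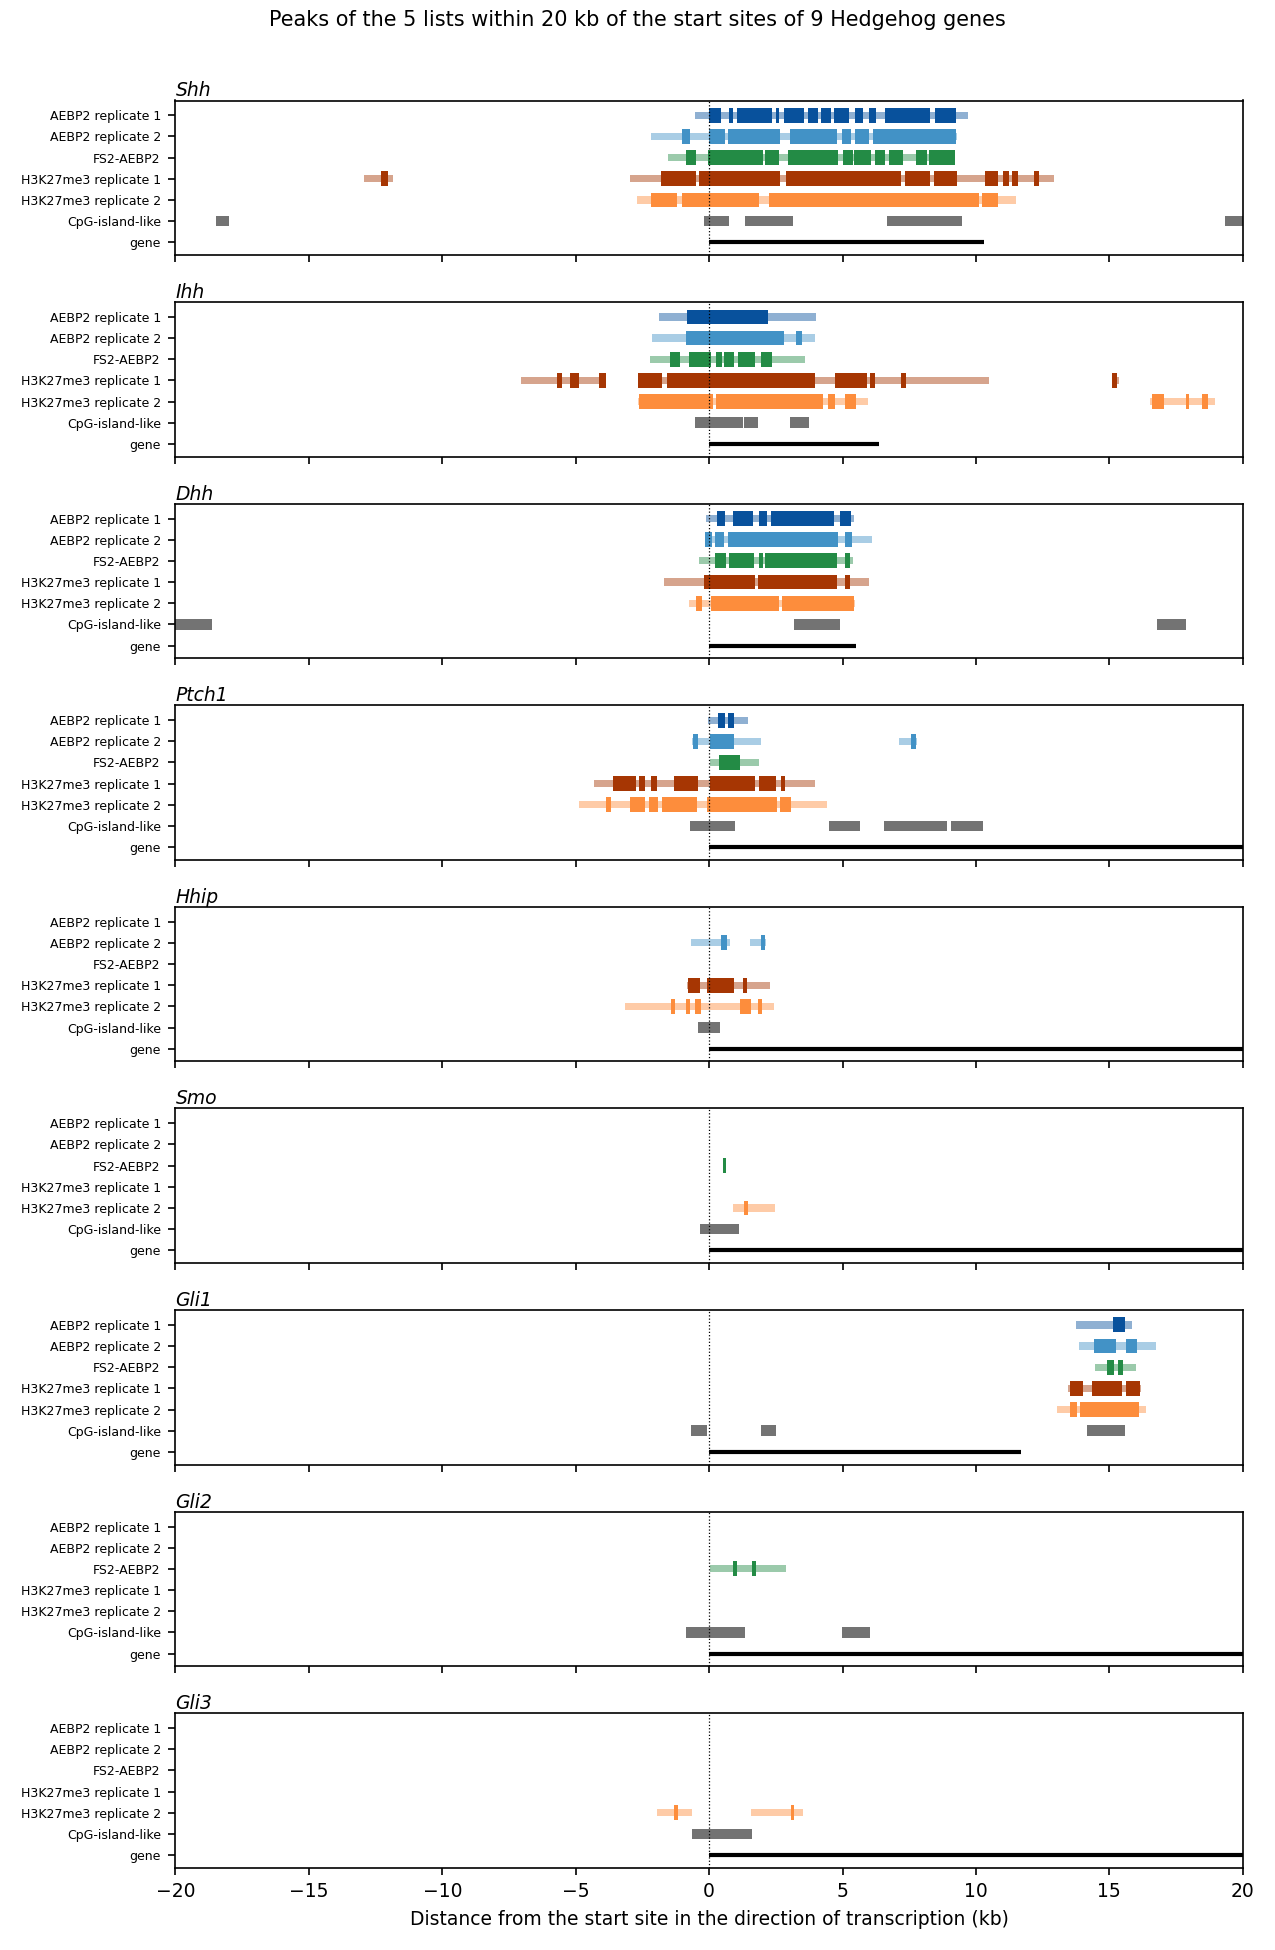
Peaks of the 5 lists around the start site of each of the 9 genes, with distance from the start site in kb on the x axis, oriented so that the gene runs to the right, and 1 row per list; thin bars are peaks thick parts their inner blocks, grey bars CpG-island-like regions and black lines the genes. Shh, Ihh and Dhh had long peaks in every list, Ptch1 had short AEBP2 peaks inside wide H3K27me3 peaks at its start site, and Gli1 had peaks only beyond its 3′ end.

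A CpG-island-like region, built by joining 500 bp windows of mm9 that had 55% GC or more and a CpG count, relative to that expected from base composition, of 0.65 or more, lay within 1 kb of 8 of the 9 start sites, against 12312 of all 22367 protein-coding genes. Dhh was the exception, with 59 CpGs in the 2001 bp around its start site and a ratio to expectation of 0.394. Its nearest island-like region lay inside the gene, from 3181 to 4900 bp after the start site. The promoter peaks of Dhh in all 5 lists ran on over this region, so they were not away from an island-like region. A low CpG count was not particular to Dhh, since Shh had 55 CpGs at a ratio of 0.407. The median of all protein-coding genes was 61 CpGs. Gli3 had the most CpGs of the members, 177 with a ratio of 0.885, and Ihh followed with 158 and a ratio of 0.757. Among start sites with such a region the share with a peak was 16.0% and 39.0% for the AEBP2 replicates, 11.4% for FS2-AEBP2, and 24.5% and 27.5% for the H3K27me3 replicates, and 8.04% had a peak in all 5 lists. For such sites, peaks of both AEBP2 replicates were found at 14.9% and of both H3K27me3 replicates at 23.4%. Dhh belonged to the 10055 start sites without one, of which 0.597% and 1.76% had a peak in the AEBP2 replicates, 0.567% for FS2-AEBP2, and 7.95% and 5.82% in the H3K27me3 replicates. Peaks in all 5 lists were found at 0.328% of them, which is 33 genes, with Dhh among them. The members without an endogenous AEBP2 peak (Smo, Gli1, Gli2 and Gli3) all had an island-like region at the start site.

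The 3 ligand genes had long peaks in all 5 lists that ran from the promoter into the gene. Shh, the ligand that patterns the ventral neural tube and the limb bud, lies at chr5:28783355-28793641 on the minus strand (ENSMUSG00000002633). Its promoter peak measured 10218 and 11455 bp in AEBP2 replicates 1 and 2, 10773 bp for FS2-AEBP2, and 15887 and 14211 bp in H3K27me3 replicates 1 and 2. The AEBP2 replicate 1 peak (chr5:28783953-28794170) ran from 529 bp before to 9688 bp after the start site and overlapped all 3 exons. These are among the longest peaks of their lists, with 98.2%, 98.8%, 97.1%, 97.7% and 97.5% of the list's peaks shorter. Of the 10287 bp of the gene, the peaks covered 94.2%, 90.2% and 89.8% in the AEBP2 and FS2-AEBP2 lists and 100% in both H3K27me3 lists. The deposited score, whose scale is not stated and which was ranked only within a list, was 19, 22, 49, 19 and 35, so that between 88.4% and 99.2% of a list's peaks scored lower.

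Ihh, the ligand that acts in growing cartilage and the gut, lies at chr1:74991891-74998246 on the minus strand (ENSMUSG00000006538). Its promoter peak was 5853 and 6093 bp long for AEBP2, 5841 bp long for FS2-AEBP2, and 13159 and 8606 bp long for H3K27me3. The 3 AEBP2-type peaks differed by 252 bp at most, whereas the H3K27me3 replicates differed by 4553 bp. All 3 AEBP2-type peaks ended between 3607 and 3988 bp after the start site and overlapped the first and second exons but not the third, while both H3K27me3 peaks reached the third exon. The share of the gene covered was 62.8%, 62.3% and 56.8% in the AEBP2 and FS2-AEBP2 lists and 100% and 93.5% in the H3K27me3 lists. The scores of 15, 34, 36, 26 and 24 stood above those of 85.0%, 95.3%, 90.1%, 96.0% and 94.3% of peaks in their lists.

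Dhh, the ligand of the testis and peripheral nerve sheath, lies at chr15:98723462-98728971 on the minus strand (ENSMUSG00000023000). AEBP2 peaks of 5544 and 6259 bp, an FS2-AEBP2 peak of 5790 bp and H3K27me3 peaks of 7682 and 6225 bp were called at its promoter. The peaks of every list started close to the start site, from 101 to 390 bp before it for AEBP2 and FS2-AEBP2 and 1692 and 766 bp before it for H3K27me3. They covered between 98.0% and 100% of the 5510 bp gene. Dhh was the highest scoring member in AEBP2 replicates 1 and 2, FS2-AEBP2 and H3K27me3 replicate 1, with scores of 23, 38, 90 and 36, and scored 27 in H3K27me3 replicate 2. Its FS2-AEBP2 score stood above that of 99.1% of peaks in that list, as did its H3K27me3 replicate 1 score in its own.

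**Figure D2:**
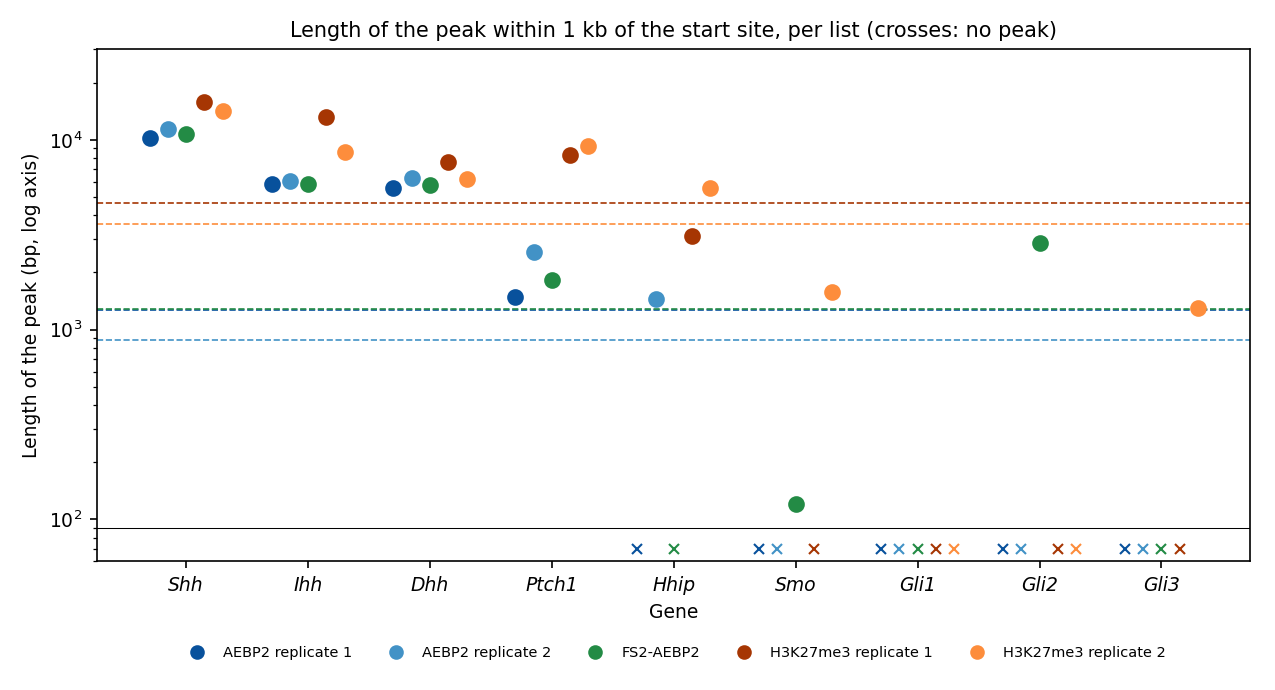
Length in bp (log axis) of the peak within 1 kb of the start site for each member and list; points are single peaks, each from 1 library, crosses mark lists with no peak, and dashed lines are the median length of the promoter peaks of each list. The ligands lay above the median of every list, and the peaks of Smo and Gli3 lay below that of theirs.

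Ptch1, the receptor that holds SMO inactive, lies at chr13:63610261-63674474 on the minus strand (ENSMUSG00000021466) and has start sites of coding transcripts at 0, 7646, 8840 and 58849 bp from its 5′ end. Its AEBP2 promoter peaks were 1479 and 2577 bp long and its FS2-AEBP2 peak 1826 bp, against 8265 and 9322 bp for H3K27me3. The AEBP2 and FS2-AEBP2 peaks were thus shorter than those of any ligand, although longer than the median promoter peak of their lists, which was 1269.5, 884 and 1281 bp. They scored 6, 13 and 15, above 38.4%, 74.3% and 69.3% of peaks. The H3K27me3 peaks were long and high, with scores of 30 and 25 above 97.7% and 95.2% of peaks. They reached from 4307 and 4886 bp before the start site to 3957 and 4435 bp after it.
At the coding start site 7646 bp downstream, only AEBP2 replicate 2 had a peak, of 662 bp with a score of 3, over the Ptch1 stretch printed above. That site lies within a CpG-island-like region from 6554 to 8933 bp, so in 4 of the 5 lists the peaks ended before this region. Ptch1 was also the only member with the GLI binding motif TGGGTGGTC, searched on both strands within 1 kb of the start site, where 1.68% of all genes hold it. The match lay 307 bp before the start site.

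The ligands and Ptch1 differed in the length of the H3K27me3 peak relative to the AEBP2 or FS2-AEBP2 peak. For each gene, the H3K27me3 peak length was divided by the AEBP2 or FS2-AEBP2 peak length for every pair of lists. The ratio was 1.24 to 1.55 at Shh, 1.41 to 2.25 at Ihh and 0.995 to 1.39 at Dhh, and 3.21 to 6.30 at Ptch1. Over all genes with a promoter peak in both lists of a pair, the median ratio ran from 2.88 to 4.51 over the 6 pairs. Of these genes, between 3.90% and 10.7% had a lower ratio than Shh, between 5.11% and 28.8% than Ihh, between 1.47% and 7.82% than Dhh, and between 50.3% and 80.2% than Ptch1. The ligands were thus below the median ratio, and Ptch1 above it, in all 6 pairs. The ratio depends on both lengths, and the AEBP2 and FS2-AEBP2 peaks were shorter at Ptch1 than at any ligand. A higher ratio therefore need not mean a wider H3K27me3 peak. With the exception of AEBP2 replicate 2 at Dhh, of which 98.3% and 89.8% lay within the H3K27me3 peaks, every AEBP2 and FS2-AEBP2 peak within 1 kb of the start site of these 4 genes lay wholly within the peaks of both H3K27me3 lists.

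Hhip, the membrane protein that binds Hedgehog ligands and limits their reach, lies at chr8:82490014-82581905 on the minus strand (ENSMUSG00000064325). It had H3K27me3 promoter peaks in both replicates, of 3098 and 5583 bp, and an AEBP2 peak in replicate 2 only, of 1453 bp. The AEBP2 peak scored 2, a score above that of only 2.51% of peaks in its list, while the H3K27me3 scores of 9 and 16 stood above 72.8% and 82.3%. A further AEBP2 replicate 2 peak, of 590 bp with a score of 4, lay from 1543 to 2132 bp after the start site. With peaks within 1 kb joined, the AEBP2 replicate 2 promoter peak was 2799 bp long and scored above 15.0% of its list. The nearest AEBP2 replicate 1 peak lay 346198 bp away and the nearest FS2-AEBP2 peak 821293 bp away. This combination of AEBP2 replicate 2 and both H3K27me3 lists was found at 3.38% of all genes and at 5.69% of those with a CpG-island-like region at the start site.

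Smo, the seven-pass membrane protein that passes the signal into the cell, lies at chr6:29685694-29711365 on the plus strand (ENSMUSG00000001761). Its FS2-AEBP2 peak measured 120 bp, from 516 to 635 bp after the start site and wholly within the coding part of the first exon, and 2.15% of peaks in that list were shorter. Its H3K27me3 replicate 2 peak of 1586 bp began 896 bp after the start site, shared no base with the FS2-AEBP2 peak, and had a score of 4 that exceeded 16.4% of peaks. The other 3 lists had their nearest peak 42745 bp or more away. These 2 lists and no other had a peak at 3 genes, 0.0134% of all genes and 0.0244% of those with a CpG-island-like region.

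Among the transcription factor genes, no list of endogenous AEBP2 had a promoter peak. Gli1, a GLI activator whose own transcription follows pathway activity, lies at chr10:126766945-126778645 on the minus strand (ENSMUSG00000025407). The nearest peak of all 5 lists lay beyond its 3′ end, 13027 to 14458 bp after the start site, within the gene Arhgap9. Those peaks measured 2117 and 2888 bp for AEBP2, 1549 bp for FS2-AEBP2, and 2727 and 3362 bp for H3K27me3. They overlapped a CpG-island-like region and not the start site of Arhgap9.

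Gli2, the main GLI activator, lies at chr1:120730709-120950196 on the minus strand (ENSMUSG00000048402). It had a promoter peak only for FS2-AEBP2, from 30 to 2893 bp after the start site, as did 0.250% of all genes and 0.422% of those with a CpG-island-like region. That peak measured 2864 bp but had a score of 3, above 4.13% of peaks, and inner blocks of stronger signal filled 10.9% of it against a list median of 50.3%. The nearest AEBP2 peaks lay 367808 and 366607 bp away. The nearest H3K27me3 peaks lay 134361 and 82958 bp away, so that no other list had a peak near the FS2-AEBP2 peak.

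Gli3, which acts largely as a repressor in the absence of ligand, lies at chr13:15555068-15821859 on the plus strand (ENSMUSG00000021318). Only H3K27me3 replicate 2 had a promoter peak, of 1301 bp from 1945 to 645 bp before the start site, as did 2.01% of all genes and 2.76% of those with a CpG-island-like region. A further peak of 1931 bp in that list began 1571 bp after the start site, in an intron, so the start site itself lay between the 2 peaks. Both had a score of 7, the median of that list. The nearest peaks of the other 4 lists lay 849507, 554120, 3356564 and 546033 bp away. Gli3 was thus the member with the most CpGs at its start site, and no AEBP2 or FS2-AEBP2 peak was called there.

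**Figure D3:**
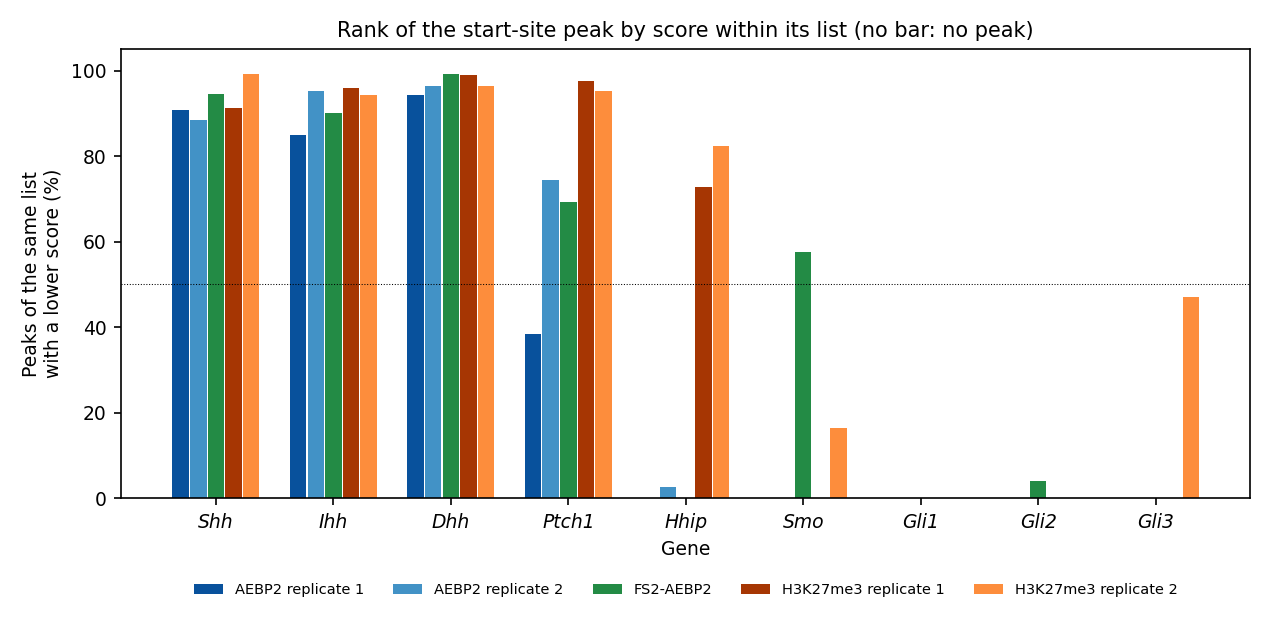
Percent of peaks in the same list with a lower score (y axis, 0 to 100) for the promoter peak of each member, by list; each bar is 1 peak from 1 library, no bar means no peak, and the dotted line marks the middle of a list. The 3 ligands lay at 85.0 or above in every list, whereas the peaks of Smo, Gli2 and Gli3 lay at 57.5 or below. Hhip in AEBP2 replicate 2 (2.51) and Ptch1 in AEBP2 replicate 1 (38.4) were also low, and the other peaks of these genes lay at 69.3 or above.

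The share of a promoter peak that the inner blocks filled overlapped between the genes. At the ligands they filled 48.5% to 88.0% of the promoter peak, and at Ptch1 31.1% to 58.0%, with list medians from 31.8% to 52.1%. At Hhip they filled 17.6% of the AEBP2 replicate 2 peak and 52.5% and 20.6% of the H3K27me3 peaks. At Gli3 they filled 11.9%, and at Smo 10.1% of the H3K27me3 replicate 2 peak but 85.8% of the 120 bp FS2-AEBP2 peak.

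Other genes of the pathway were taken from a list of 33 names, of which 32 were found in the annotation and Disp1 was not. AEBP2 replicates 1 and 2 had promoter peaks at 13 and 26 of the 32 (9.08% and 22.3% of all genes), FS2-AEBP2 at 13 (6.53%), and H3K27me3 replicates 1 and 2 at 16 and 15 (17.0% and 17.7%). A peak in all 5 lists was found at 11 genes (4.57% of all genes) and in none at 6 (68.5%), and the lists disagreed at 15. A CpG-island-like region lay at the start site of 29 of the 32. Among all such sites the shares per list were 16.0%, 39.0%, 11.4%, 24.5% and 27.5%, in the same order. Of these sites 8.04% had a peak in all 5 lists and 50.7% in none.
All 8 transcription factor genes that act downstream of Hedgehog signalling in patterned tissue (Foxa2, Nkx2-2, Nkx2-1, Nkx6-1, Olig2, Foxf1a, Foxl1 and Foxc2) had a promoter peak in every list. Their AEBP2 peaks measured 5113 to 16934 bp in replicate 1 and 7734 to 19883 bp in replicate 2, and their H3K27me3 peaks 21342 to 28394 bp in replicate 1 and 17445 to 29908 bp in replicate 2. Every ligand H3K27me3 peak was shorter than the shortest of these in the same list, since the ligands reached at most 15887 and 14211 bp. Foxl1 and Foxc2 lay under the same peak in AEBP2 replicate 2 and in both H3K27me3 lists, and are not separate there. In AEBP2 replicate 1 and FS2-AEBP2 the ligand peaks lay within the range of these factors, whose shortest peak there was at Foxl1. GENCODE vM1 types Foxl1 as a pseudogene, so it is not among the protein-coding genes behind the shares given here. Without Foxl1 the shortest peaks in these lists were at Foxc2, 9601 and 9161 bp, and those of Ihh and Dhh were shorter. In AEBP2 replicate 2 the peaks of Ihh and Dhh were shorter than that of any of the factors.

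Of the 5 genes for ligand processing and release, Scube1 and Scube2, which help release lipid-bearing ligand, had peaks in all 5 lists. Hhat, the acyltransferase of the ligands, lacked only FS2-AEBP2. Scube3 had peaks of AEBP2 replicate 2 and both H3K27me3 lists, and Disp2 of AEBP2 replicate 2 only. Of the 4 co-receptor genes, Lrp2 had peaks in all 5 lists. Boc lacked only AEBP2 replicate 1, Gas1 had peaks of AEBP2 replicate 2, FS2-AEBP2 and H3K27me3 replicate 1, and Cdon of AEBP2 replicate 2 only.
Of the 15 genes for transduction from SMO to GLI, AEBP2 replicate 2 had a promoter peak at 9 (22.3% of all genes) and AEBP2 replicate 1 at 1 (9.08%). FS2-AEBP2 had a peak at 0 of the 15 (6.53% of all genes), and H3K27me3 replicates 1 and 2 at 1 each (17.0% and 17.7%). A CpG-island-like region lay at the start site of 12 of the 15. Among all such sites the shares were 39.0% and 16.0% for AEBP2 replicates 2 and 1. They were 11.4% for FS2-AEBP2, and 24.5% and 27.5% for H3K27me3 replicates 1 and 2. Spop, an adaptor for GLI degradation, had peaks of AEBP2 replicate 2 and both H3K27me3 lists, and Csnk1a1, a kinase that phosphorylates GLI proteins, of both AEBP2 replicates only. Another 7 (Evc, Evc2, Prkaca, Gsk3b, Btrc, Kif3a and Ift88) had a peak of AEBP2 replicate 2 alone, of which Evc and Evc2 shared a peak. Over all protein-coding genes, AEBP2 replicate 2 had a promoter peak at 4983, and only 1888 genes had one in both replicates. The share of all genes with a peak of replicate 2 alone was not computed, so this pattern cannot be called particular to the transduction genes. The remaining 6 had none.

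**Figure D4:**
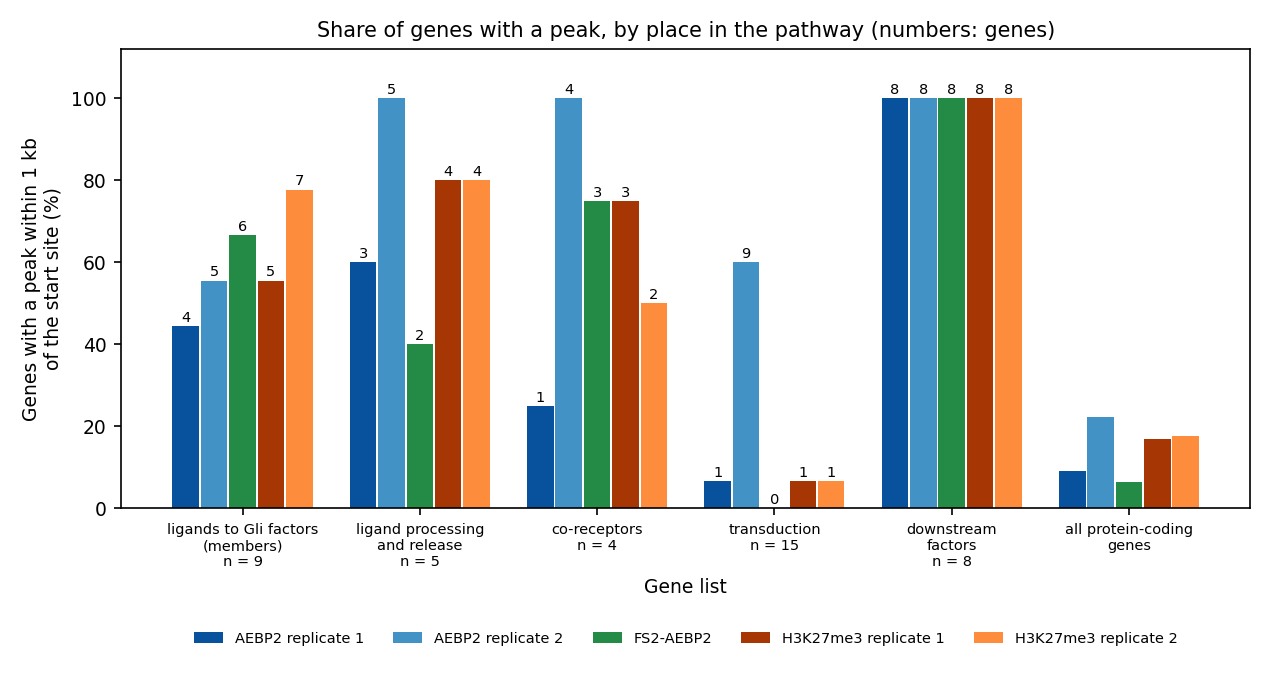
Percent of genes with a peak within 1 kb of the start site (y axis, from 0) in each of the 5 lists, for the 9 members, the other pathway genes by role and all protein-coding genes. All downstream transcription factor genes had a peak in every list. The transduction genes had one chiefly in AEBP2 replicate 2, which was also the list with the highest share over all protein-coding genes.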

How the data were processed

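AEBP2, H3K27me3 and FS2-AEBP2 peaks of wild-type cells were used. The submitters' processing notes name Bowtie, SAMtools, Picard, MACS2 (version 2.0.10.2) and mm9. The authors called peaks sample by sample, and the deposited lists give each peak's start, end, inner blocks and score, a whole number whose scale is not stated. Duplicate handling, thresholds and control library are not given in the sources used here. The lists hold no comparisons and no peak passed a chromosome end of mm9. Lists were read with Python 3.11.15 and numpy 2.4.6, drawn with matplotlib 3.10.9, and peaks off chromosomes 1 to 19, X and Y were left out (2 of 2879 in AEBP2 replicate 1 and 13 of 9288 in H3K27me3 replicate 2). A promoter was 1 kb on either side of the 5′ end of the gene, and an overlap 1 bp or more. Scores and lengths were ranked within a list. On simulated peaks, 69 of 69 planted within 1 kb of a start site, among 200 planted over 22367 genes, were recovered. The same overlap rule set which of them counted as planted there, so this checks the overlap code and not the calling of peaks. All values are descriptions with no test. Every member was named, and of the other pathway genes those with a peak in all 5 lists or with lists that disagreed. The 2 genes most alike in coverage were named for the ligand genes, and 1 other pathway gene and the genes most like Ptch1 are not reported here. Members and lists were chosen with earlier results of these data known. Alternatives were 2.5 kb and 500 bp promoters, a shared length of at least 500 bp, joining of peaks within 1 kb, any coding start site of a gene, all sequences in place of chromosomes 1 to 19, X and Y, a score of at least the list median and leaving out a replicate.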

Additional observations from a re-analysis of the deposited data

How the results depend on the processing

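Of 152 counts and shares recomputed under the alternatives, 149 stayed within 1.5 times the reported value. These include values that were fixed in advance. Taking all sequences could change no count or share, since every gene counted lies on the chromosomes already used. Joining neighbouring peaks could only add an overlap, never remove one, and it left every count and share as reported. The unchanged values under the all-sequences setting therefore say nothing on stability, and those under joining say little. With peaks of at least the median score of their list, the share of all promoters with a peak fell to 5.15% and 13.5% in AEBP2 replicates 1 and 2 and to 3.94% for FS2-AEBP2, fewer peaks being counted by construction. Under that setting Ptch1 dropped out of AEBP2 replicate 1, Hhip out of AEBP2 replicate 2, Gli2 out of FS2-AEBP2 and Smo out of H3K27me3 replicate 2. With 500 bp promoters or at least 500 bp shared, Smo dropped out of FS2-AEBP2 and Smo and Gli3 out of H3K27me3 replicate 2. Shh, Ihh and Dhh had a peak in all 5 lists under every setting run. Members with an AEBP2 peak numbered 5 without replicate 1 and 4 without replicate 2, and those with an H3K27me3 peak 7 and 5. Of 154 score ranks and lengths of single peaks, 28 moved by at least the SD of the 2 replicates or, with no second replicate value, by any amount. Some of these were also fixed in advance. With only peaks of at least the median score, a rank could only fall, because lower-scoring peaks left the list. The length of a peak kept under that setting could not change. No paired analysis was possible because the results come from no test. The unknown depth limits every statement on a missing peak, and the AEBP2 lists differ 2877 to 6779 in peaks.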

Other observations

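Coverage by peaks in 1 kb bins up to 20 kb before and after the start site, in all 5 lists (200 values a gene), was compared between each of the 3 ligand genes and all other protein-coding genes whose start site lay more than 50 kb away. The genes with the smallest mean absolute difference from Shh were 1110006G14Rik and Sox6 (5.78 and 6.10 percentage points), which are neighbours on chromosome 7 with start sites at 123175493 and 123182258, so that their windows overlap, and from Ihh Vstm2b and Pcdh10 (4.83 and 6.41 percentage points). From Dhh they were Pcdh17 and Amn (3.93 and 4.73 percentage points). These values are descriptions over bins that share libraries. Within 20 kb of the 9 start sites lay 23 CpG-island-like regions, of which 9 were overlapped by AEBP2 replicate 1, 11 by replicate 2, 11 by FS2-AEBP2, 10 and 12 by H3K27me3 replicates 1 and 2, and 9 by none. The share of all 20675 such regions with a peak was not computed, so these counts cannot be set beside regions in general.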
